A study of Homo sapiens with 12 samples.

Results

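The genes described here encode the hnRNP and SR proteins, the 2 large classes of RNA-binding proteins that set which splice sites a cell uses. They were taken by symbol from the deposited expression table and are 37 of its 25268 genes, 25 for the hnRNP class and 12 for the SR proteins. All 37 had a mean of at least 0.5 FPKM (sequenced fragments of a gene, scaled to the length of its transcripts and to the size of the library), as did 14676 genes in all, which were the genes tested. No member passed the test, at a Benjamini-Hochberg adjusted p of up to 0.05 in limma, in any of the 5 comparisons that the design allows, in which 0.0204% to 1.34% of all genes tested passed. Among values that did not pass, SRSF7, SRSF5, SRSF1 and SRSF2 were higher in every RBMX than in every control library of total RNA (4 of 37, 10.8%, against 11.9% of all genes). SRSF6, SRSF2, SRSF5, SRSF7 and PTBP2 were lower in polysomal than in total RNA of every culture. These are 5 of 37 (13.5%), against 16.5% of all genes. Over the 37 members both shares were thus no higher than over all genes. By class, the first count was 4 of the 12 SR genes (33.3%) and 0 of the 25 hnRNP genes. The second was 4 SR genes (33.3%) and 1 hnRNP gene (4%), and the difference between the classes was not tested. Many hnRNP genes were low in both libraries of 1 control culture.

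hnRNP proteins bind nascent transcripts in the nucleus and often repress the exons near which they bind, while SR proteins carry arginine-serine repeats, bind exonic enhancers and help to recruit the spliceosome. Several proteins of both classes also shuttle to the cytoplasm, where they act on mRNA export, stability and translation. Many SR genes and several hnRNP genes tune their own output through an exon whose inclusion brings a premature stop codon, so that part of their transcript is cut short and degraded.

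The libraries came from HEK293 cells, a human embryonic kidney line with traits of neural cells, transiently transfected with 2 µg of a plasmid, pCMV6-HIS-HA-RBMX, which drives tagged RBMX from a viral promoter, or with the mock empty vector. The labels call the control cells wild type. RBMX, also called hnRNP G, is a splicing regulator and no member of the lists. Cells were treated with cycloheximide and lysed, and the lysates, freed of nuclei, were run on sucrose gradients. Polysomal RNA thus came from the fractions with ribosome-loaded transcripts and total RNA from a pool of 20% of every fraction. Each of the 4 groups (control total, control polysomal, RBMX total and RBMX polysomal) held 3 libraries. Because nuclei had been removed, total RNA here is the RNA of the cleared lysate. How far nuclear transcripts, among them unspliced ones, were left out was not checked. The methods of the study call the replicates biological triplicates, while the labels do not tell how they were made, so the p-values measure the spread between these libraries. The total and the polysomal library with the same number and vector are called a culture below. This pairing was read from the numbers, and correlations between libraries did not settle it for RBMX cultures 1 and 2.

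RBMX stood at 147, 145 and 108 FPKM in control total RNA and at 1731, 2073 and 1460 FPKM in RBMX total RNA. The libraries thus followed their labels for the vector, while the labels for the fraction were not checked in this way. In polysomal RNA it stood at 146, 148 and 87.4 FPKM in control and 1167, 1328 and 1072 FPKM in RBMX cells. Transcripts of the plasmid and of the cell's own gene cannot be told apart in this table. Of the markers of this line, NEFL, NEFM, VIM, PAX2 and LHX1 were detected in every library, and the markers of liver, blood and T cells (ALB, PTPRC, CD3E and HBB) stayed at 0.226 FPKM or less. The third control library stood apart in both fractions: its Spearman correlation with its replicates across 14186 genes was 0.979 to 0.982 in total and 0.975 to 0.976 in polysomal RNA, against 0.997 between replicates 1 and 2 of either fraction. Among RBMX libraries it was 0.991 to 0.996 in total RNA and 0.982 to 0.992 in polysomal RNA, so on this measure RBMX polysomal replicates 2 and 3 were as far apart as control total replicates 1 and 3. VIM read 248 FPKM in this library against 522 and 549 FPKM in the other control total libraries. Values that rest on control libraries are therefore also given without it, wherever that turned their direction or moved them by over 1.5 times.

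**Figure D1:**
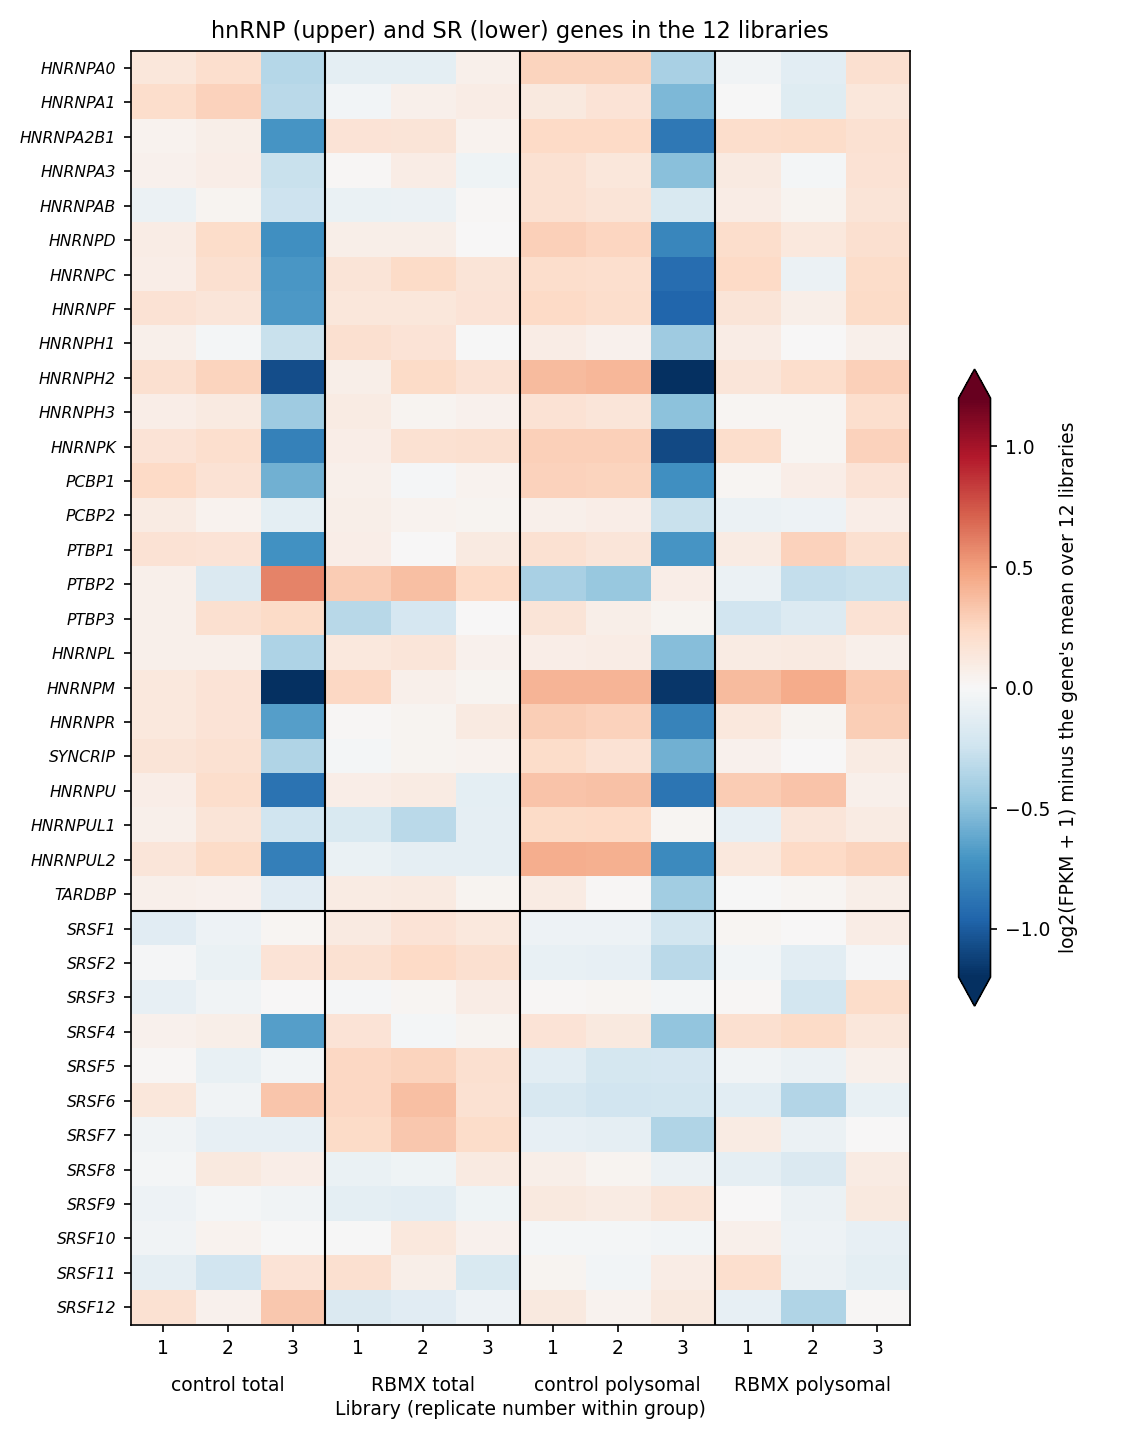
Level of each of the 37 genes (rows) in each of the 12 libraries (columns), as log2(FPKM + 1) minus the mean of the gene over the 12 libraries; blue is lower and red higher, and values beyond the ends of the scale have the end colour. The columns of control replicate 3 are blue for most of the 25 hnRNP genes in both fractions, and the RBMX total columns are red for SRSF1, SRSF2, SRSF5, SRSF6 and SRSF7.

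The starts of 7 members share a short stretch that is shown here because it was found in genes of several of the families. The letters GCCATNTT, the core of the site bound by the factor YY1, were searched on both strands of the window from 250 bases before to 50 bases after the start of each gene in RefSeq (assembly GRCh38.p14). This motif was chosen after the windows had been seen. Windows were on hand for 35 of the 37 members (HNRNPA1 and SRSF2 had none), and 7 of them (20.0%) held the letters. The share was 7.969% over 27305 genes with a window and 12.267% over the 10312 tested genes with one. The stretches are given in the direction of the gene with the motif in capitals:
HNRNPC: gactcggggGCCATTTTgtgaagaga
HNRNPD: cttccgtcgGCCATTTTaggtggtcc
HNRNPUL1: gtggcggcgGCCATTTTgagccgctg
PTBP1: ggcgtctccGCCATTTTgtgagtcta
TARDBP: ggccctagcGCCATTTTgtgggagcg
SRSF1: gataaaggcGCCATTTTggaggggcc
HNRNPM: gacgcggagAAAATGGCggcaggggt

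Each of these stretches overlaps or lies near the transcription start. They are chr14:21269411-21269436 on the minus strand for HNRNPC, chr4:82373971-82373996 on the minus strand for HNRNPD, chr19:41264360-41264385 on the plus strand for HNRNPUL1, chr19:797396-797421 on the plus strand for PTBP1, chr1:11012642-11012667 on the plus strand for TARDBP, chr17:58007230-58007255 on the minus strand for SRSF1 and chr19:8444987-8445012 on the plus strand for HNRNPM. In HNRNPM the motif reads on the opposite strand, and in the other members on the strand of the gene. A match describes these letters only and is neither a measured binding site nor a cause of any value below.

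In FPKM, which is per length of transcript, the members covered a wide range of levels. HNRNPA2B1, which binds and carries RNA in nucleus and cytoplasm, was the most abundant with a mean of 638 FPKM over the 12 libraries. HNRNPH1, a binder of runs of G, followed at 357 FPKM, then SRSF9 at 348 FPKM and HNRNPAB at 298 FPKM. SRSF10, an SR protein that represses splicing when dephosphorylated, was the lowest at 1.36 FPKM, and PTBP2, the form of the polypyrimidine tract-binding protein typical of neurons, had 10.4 FPKM against 173 FPKM for PTBP1. Together the 37 genes made up 0.850% to 1.32% of the summed FPKM of all genes other than small RNA genes, and the lowest share was that of control total replicate 3.

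In the third control culture many hnRNP genes had low values. In bulk RNA, fewer cells with a transcript and fewer transcripts per cell cannot be told apart, here or in any comparison below. HNRNPM, a binder of GU-rich RNA, read 219, 225 and 75.1 FPKM in the 3 control total libraries and 267, 266 and 88.6 FPKM in the control polysomal libraries. The third library thus had 33.9% of the mean of the other libraries in the total fraction and 33.2% in the polysomal fraction. The 3 RBMX total libraries held 238, 209 and 205 FPKM. HNRNPH2, an X-linked relative of HNRNPH1, read 50.1, 52.6 and 20.3 FPKM in control total and 57.1, 57.9 and 17.2 FPKM in control polysomal RNA. HNRNPK, a KH-domain protein that binds C-rich RNA, read 231, 237 and 117 FPKM in control total RNA, and HNRNPU, a scaffold protein of chromatin, 115, 126 and 58.4 FPKM. For these 4 genes the third control library lay below every other library of its fraction, RBMX libraries included.

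Most hnRNP genes shared that pattern in both fractions, and the SR genes did so less in total than in polysomal RNA by count. In total RNA, control replicate 3 lay below both other control replicates for 25 of the 37 members, 23 of the 25 hnRNP genes and 2 of the 12 SR genes, against 41.2% of all genes tested. In polysomal RNA the counts were 31 of 37, 24 of 25 and 7 of 12, against 45.0% of all genes. On the log2(FPKM + 1) scale the median deviation from the mean of the other replicates was -0.56 for the hnRNP genes, 0.05 for the SR genes and 0.01 for all genes in total RNA, and -0.77, -0.04 and 0.00 in polysomal RNA. These libraries are 1 culture, so the counts describe it and no test over genes was made.

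Within the hnRNP class the deviation varied within families as well as between them, and no test between families was made. It was -1.55 in total and -1.58 in polysomal RNA for HNRNPM, with medians of -1.01 and -1.19 over the 3 HNRNPU-related genes (-0.34 to -1.03 in total RNA), -0.79 and -1.01 over the KH-domain genes HNRNPK, PCBP1 and PCBP2 (-0.19 to -0.99 in total RNA), and -0.54 and -0.67 over the 6 genes of the A/B family (-0.22 to -0.90 in total RNA). PTBP1 had -0.89 and -0.87, whereas PTBP2 deviated upwards, by 0.65 and 0.50, and PTBP3, a further paralog, by 0.11 and -0.08. TARDBP, which encodes TDP-43, a binder of UG repeats, had -0.19 and -0.47. Among the SR genes SRSF4 alone was low by over 1.5-fold in both fractions, with -0.72 and -0.62, and SRSF11 and SRSF6 were above the other replicates in total RNA by 0.33 and 0.29. Of the 7 genes with the stretch shown above, HNRNPM, HNRNPD, PTBP1 and HNRNPC deviated by -1.55, -0.90, -0.89 and -0.83 in total RNA, and HNRNPUL1, TARDBP and SRSF1 by -0.34, -0.19 and 0.12. HNRNPH2, HNRNPU and HNRNPK, with -1.30, -1.03 and -0.99, held no match in their windows.

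**Figure D2:**
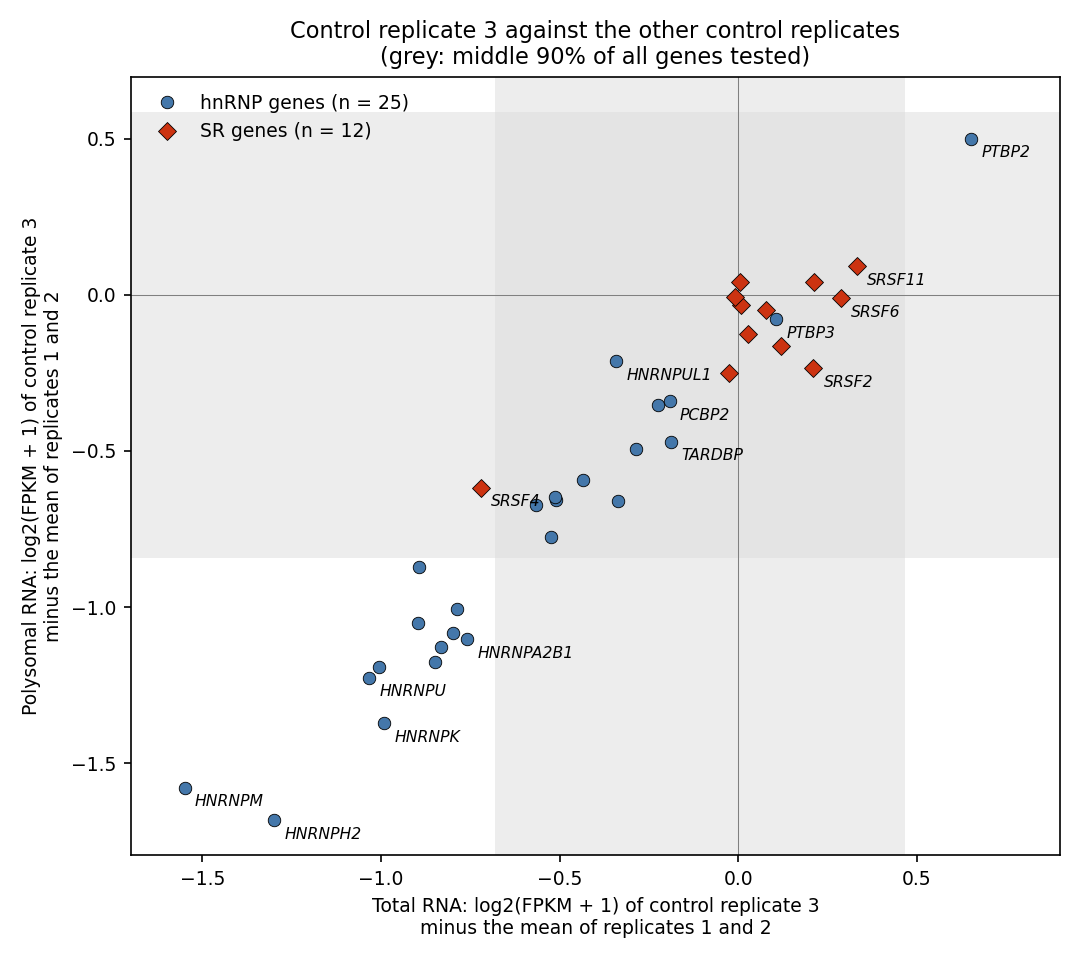
Deviation of control replicate 3 from the mean of control replicates 1 and 2, in log2(FPKM + 1), in total RNA (horizontal axis) and polysomal RNA (vertical axis), for each hnRNP gene (circles) and SR gene (diamonds); the grey bands hold the middle 90% of all genes tested in each fraction. HNRNPM and HNRNPH2 lie at the lower left, SRSF4 is the 1 SR gene among the low values, and PTBP2 is at the upper right.

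Other measures of these libraries and genes are the following. Small RNA genes took 72.3% of the summed FPKM in control total replicate 3, against 55.3% to 65.3% in the other 5 total libraries, and 64.5% in control polysomal replicate 3, against 40.5% to 64.7% in the other 5 polysomal libraries. Median GC content of the members' transcripts in GENCODE release 29 was 42.0%, against 49.0% over 13190 genes tested, and their median length 3599 bases against 3332 bases. Across these genes the Spearman correlation of the deviation was -0.16 with GC and -0.18 with length in total RNA, and 0.20 and -0.33 in polysomal RNA. Across the 37 members it was -0.34 and 0.14 in total and -0.23 and 0.05 in polysomal RNA. These genes share the same libraries and are not independent replicates, and the part of these measures in the low hnRNP values was not tested.

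The first comparison asked how a higher level of RBMX relates to the level of the other splicing regulators in total RNA. None of the 37 members passed the adjusted test, against 24 genes or 0.164% of all genes tested. At an unadjusted p under 0.05 there were 5 members, 1 hnRNP and 4 SR genes, against 18.8% of all genes. The RBMX libraries all lay above the control libraries for 4 members, SRSF1, SRSF2, SRSF5 and SRSF7, against 11.9% of all genes, and all below for 2, PTBP3 and SRSF12, against 15.4%. Over the members the median difference was 0.14 (log2), with 30 above 0 and 7 below, but without control replicate 3 it was -0.03, with 14 above and 23 below. All genes tested had medians of 0.00 and -0.01. With quantile scaling of the libraries the median of the members was 0.01, with 22 above 0, and that of all genes was -0.03.

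For the hnRNP genes alone the sign followed the third control library. The median was 0.14 with 21 of 25 genes above 0 in all libraries, and -0.05 with 6 of 25 above 0 without control replicate 3, while quantile scaling gave 0.00 with 14 above 0 and library weights -0.01 with 10 above 0. HNRNPM is the plainest case: the fitted difference was 0.49 (SE 0.44, 95% interval -0.62 to 1.59) with all libraries and -0.03 (SE 0.08) without control replicate 3. HNRNPH2 went from 0.36 to -0.07, HNRNPA2B1 from 0.32 to 0.06 and HNRNPK from 0.31 to -0.03. HNRNPUL2, of the HNRNPU family, read 35.5, 37.7 and 17.7 FPKM in control and 30.4, 29.7 and 29.7 FPKM in RBMX cells. Its difference of 0.06 became -0.28 (SE 0.04, adjusted p = 0.12 in limma) once the third control library was left out, when the groups no longer overlapped. The read-through gene HNRNPUL2-BSCL2, which shares sequence with it, read 23.8, 25.8 and 12.3 FPKM in control and 24.6, 21.8 and 27.4 FPKM in RBMX cells. Its groups thus overlapped also without that library. HNRNPUL1 read 264, 281 and 214 FPKM against 222, 202 and 234 FPKM, with differences of -0.20 and -0.31, neither of which passed. TARDBP had a difference of 0.09 with a 95% interval from -0.09 to 0.27, and 0.02 (SE 0.04) without control replicate 3.

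PTBP3 was the hnRNP gene whose groups were apart in total RNA with every library kept. It read 25.8, 28.5 and 29.3 FPKM in control and 19.4, 21.4 and 24.9 FPKM in RBMX cells. All 3 RBMX libraries lay below all 3 control libraries, and the difference was -0.34 (SE 0.10, adjusted p = 0.20 in limma) or -0.30 (SE 0.12) without control replicate 3. PTBP2 read 10.6, 8.88 and 15.8 FPKM in control and 12.8, 13.2 and 12.1 FPKM in RBMX cells, a difference of 0.14 that was 0.36 (SE 0.09, adjusted p = 0.13) without control replicate 3.

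The other 16 hnRNP genes overlapped between groups in total RNA, with differences from -0.06 (HNRNPA0) to 0.32 (HNRNPC, which forms tetramers on nascent transcripts). Without control replicate 3 they ran from -0.23 (HNRNPA0) to 0.10 (HNRNPH1). HNRNPF, a relative of HNRNPH1, read 171, 167 and 93.4 FPKM in control and 167, 167 and 170 FPKM in RBMX cells, so that its difference of 0.27 became -0.01. HNRNPL, a binder of CA repeats, read 200, 200 and 148 FPKM against 209, 211 and 199 FPKM, with 0.19 and 0.05. HNRNPA1, a repressor of many exons, read 116, 121 and 79.6 FPKM against 97.6, 104 and 106 FPKM, with -0.01 and -0.20. HNRNPH3, HNRNPR and SYNCRIP, the last pair being close relatives, had 0.14, 0.18 and 0.03 with all libraries and -0.03, -0.09 and -0.15 without control replicate 3.

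For the SR genes with groups apart the values depended less on that library. SRSF7, an SR protein with a zinc knuckle that also works as an adaptor for mRNA export, read 128, 123 and 123 FPKM in control total RNA and 155, 165 and 153 FPKM in RBMX total RNA. Its groups did not overlap. The means were 124 ± 2.67 and 158 ± 6.23 FPKM (SD, n = 3), and the difference was 0.34 (SE 0.06, 95% interval 0.20 to 0.48, adjusted p = 0.15 in limma) or 0.33 without control replicate 3. SRSF5, an SR protein long known to respond to growth signals, read 128, 119 and 124 FPKM against 151, 153 and 145 FPKM. Again every RBMX library lay above every control library, with a difference of 0.27 (SE 0.06, 95% interval 0.13 to 0.41, adjusted p = 0.17) or 0.28 without that library.

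SRSF1, the prototype of the family, read 137, 144 and 153 FPKM in control and 162, 169 and 165 FPKM in RBMX cells, with a difference of 0.19 (SE 0.06) or 0.23 without control replicate 3. SRSF2, a nuclear SR protein that binds exonic enhancers, read 239, 228 and 270 FPKM against 274, 285 and 275 FPKM, with a difference of 0.18 (SE 0.08) or 0.25 without control replicate 3. For both genes the highest control library was the third, and it lay close below the lowest RBMX library. SRSF12, a splicing repressor of the family, ran the other way with 15.0, 13.6 and 16.7 FPKM in control and 11.5, 11.8 and 12.5 FPKM in RBMX cells, a difference of -0.31 (SE 0.09, adjusted p = 0.19) or -0.24 without control replicate 3. Quantile scaling brought SRSF1 to 0.06, SRSF2 to 0.01, SRSF5 to 0.18 and SRSF7 to 0.24, and left SRSF12 at -0.32. When libraries were weighted by their fit to their group, SRSF1, SRSF2, SRSF5, SRSF7 and SRSF12 passed with adjusted p-values of 0.043, 0.049, 0.040, 0.036 and 0.048, along with 1240 genes in all (8.45%), and under none of the other 15 alternatives did any member pass in total RNA. Over all 16 alternatives the adjusted p of SRSF7 ran from 0.036 to 0.54 and that of SRSF5 from 0.040 to 0.54. Over the 12 SR genes the median difference was 0.10 with 9 above 0, and 0.15 with 8 above 0 without control replicate 3, or 0.01 with 8 above 0 under quantile scaling.

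The remaining SR genes overlapped between groups when every library was kept. SRSF6 read 88.3, 78.2 and 102 FPKM in control and 95.8, 104 and 91.5 FPKM in RBMX cells, with a difference of 0.12. Without control replicate 3 it was 0.22 (SE 0.08, adjusted p = 0.20 in limma), and the groups of SRSF6 and SRSF3 no longer overlapped. SRSF4 had a difference of 0.24 that was 0.00 without control replicate 3. SRSF3, an export adaptor like SRSF7, SRSF8, SRSF9, SRSF10 and SRSF11 had differences between -0.06 and 0.08, each with a 95% interval that held 0. Without control replicate 3 that of SRSF11 was 0.19 (SE 0.13) and those of the other 4 were between -0.06 and 0.10.

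**Figure D3:**
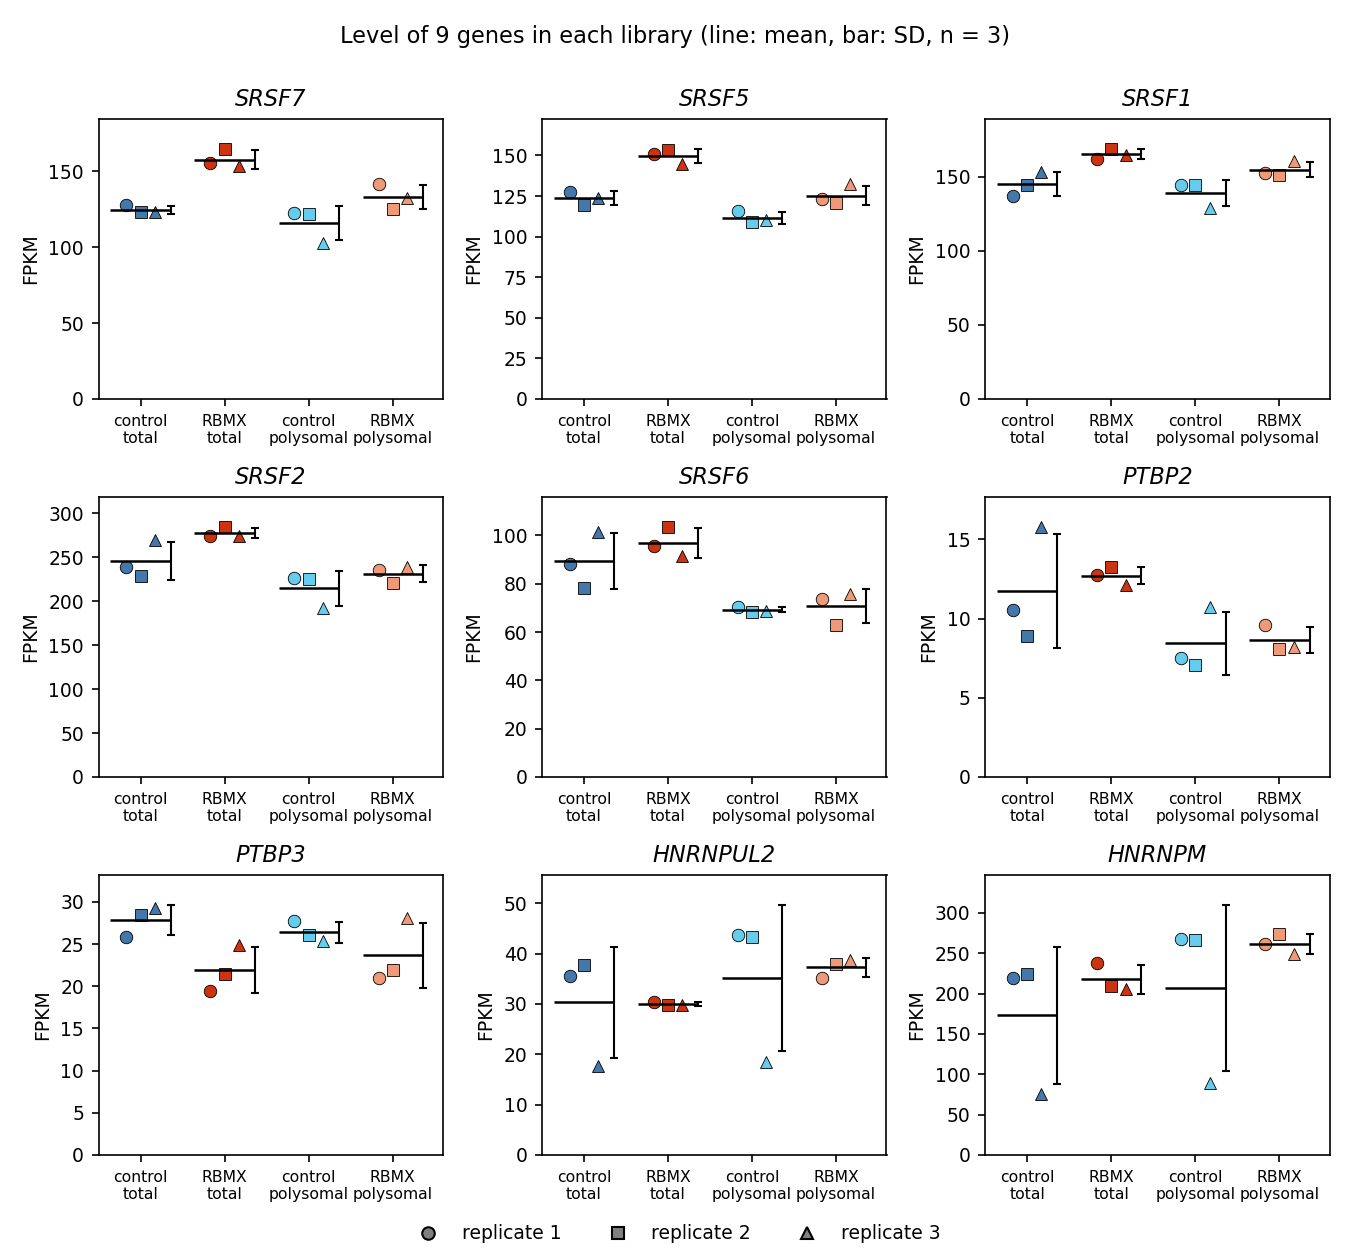
FPKM of 9 members in each library by group, with the mean (line) and SD (bar) of 3 libraries and a symbol for each replicate number; every axis starts at 0. SRSF7 and SRSF5 are higher in all 3 RBMX total libraries than in any control total library, and HNRNPUL2 and HNRNPM have 1 low library in each control group.

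In polysomal RNA the same comparison gave smaller differences for these SR genes. No member passed, against 7 genes or 0.0477% of all genes, and none had an unadjusted p under 0.05, against 11.7%. The RBMX libraries lay above the control libraries for 3 members, SRSF1, SRSF5 and SRSF7, against 10.0% of all genes, and below for 1, SRSF12, against 12.5%. SRSF7 read 123, 122 and 103 FPKM in control and 141, 125 and 132 FPKM in RBMX cells, with a difference of 0.20 (SE 0.11, 95% interval -0.06 to 0.46), which was 0.12 (SE 0.07) without control replicate 3. SRSF5 read 116, 109 and 110 FPKM against 123, 121 and 132 FPKM, with a difference of 0.16 (SE 0.08) or 0.15 without that library, and SRSF1 read 144, 144 and 129 FPKM against 152, 151 and 160 FPKM, with 0.15 (SE 0.09) or 0.10 (SE 0.06) without it. Their groups were thus apart, though for SRSF7 and SRSF5 by only a few FPKM.

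For the 25 hnRNP genes the polysomal median was 0.15 with 22 above 0, and -0.09 with 3 above 0 without control replicate 3, or -0.07 with 4 above 0 when libraries were weighted. HNRNPM went from 0.50 (SE 0.45) to -0.03 and HNRNPK from 0.34 to -0.11. Without that library the RBMX values lay below both remaining control values for 11 of the 37 members in total RNA (29.7%, against 26.5% of all genes) and for 11 in polysomal RNA (29.7%, against 26.2%). HNRNPA0, HNRNPD, PCBP1, SYNCRIP, HNRNPUL1, HNRNPUL2 and SRSF12 were in both counts. These shares were close to those over all genes, but by class they were 10 of the 25 hnRNP genes (40.0%) and 1 of the 12 SR genes (8.33%) in each fraction. The RBMX values lay above both remaining control values for 7 members in total RNA (18.9%, against 20.5%), PTBP2 and 6 SR genes, and for 4 in polysomal RNA (10.8%, against 19.1%), PTBP2 and 3 SR genes. The difference between the classes was not tested. With library weights PTBP2 and HNRNPUL1 passed in polysomal RNA, with adjusted p-values of 0.045 and 0.040 in limma, which is 5.41% of the members against 21.0% of all genes, and in no other alternative did a member pass.

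**Figure D4:**
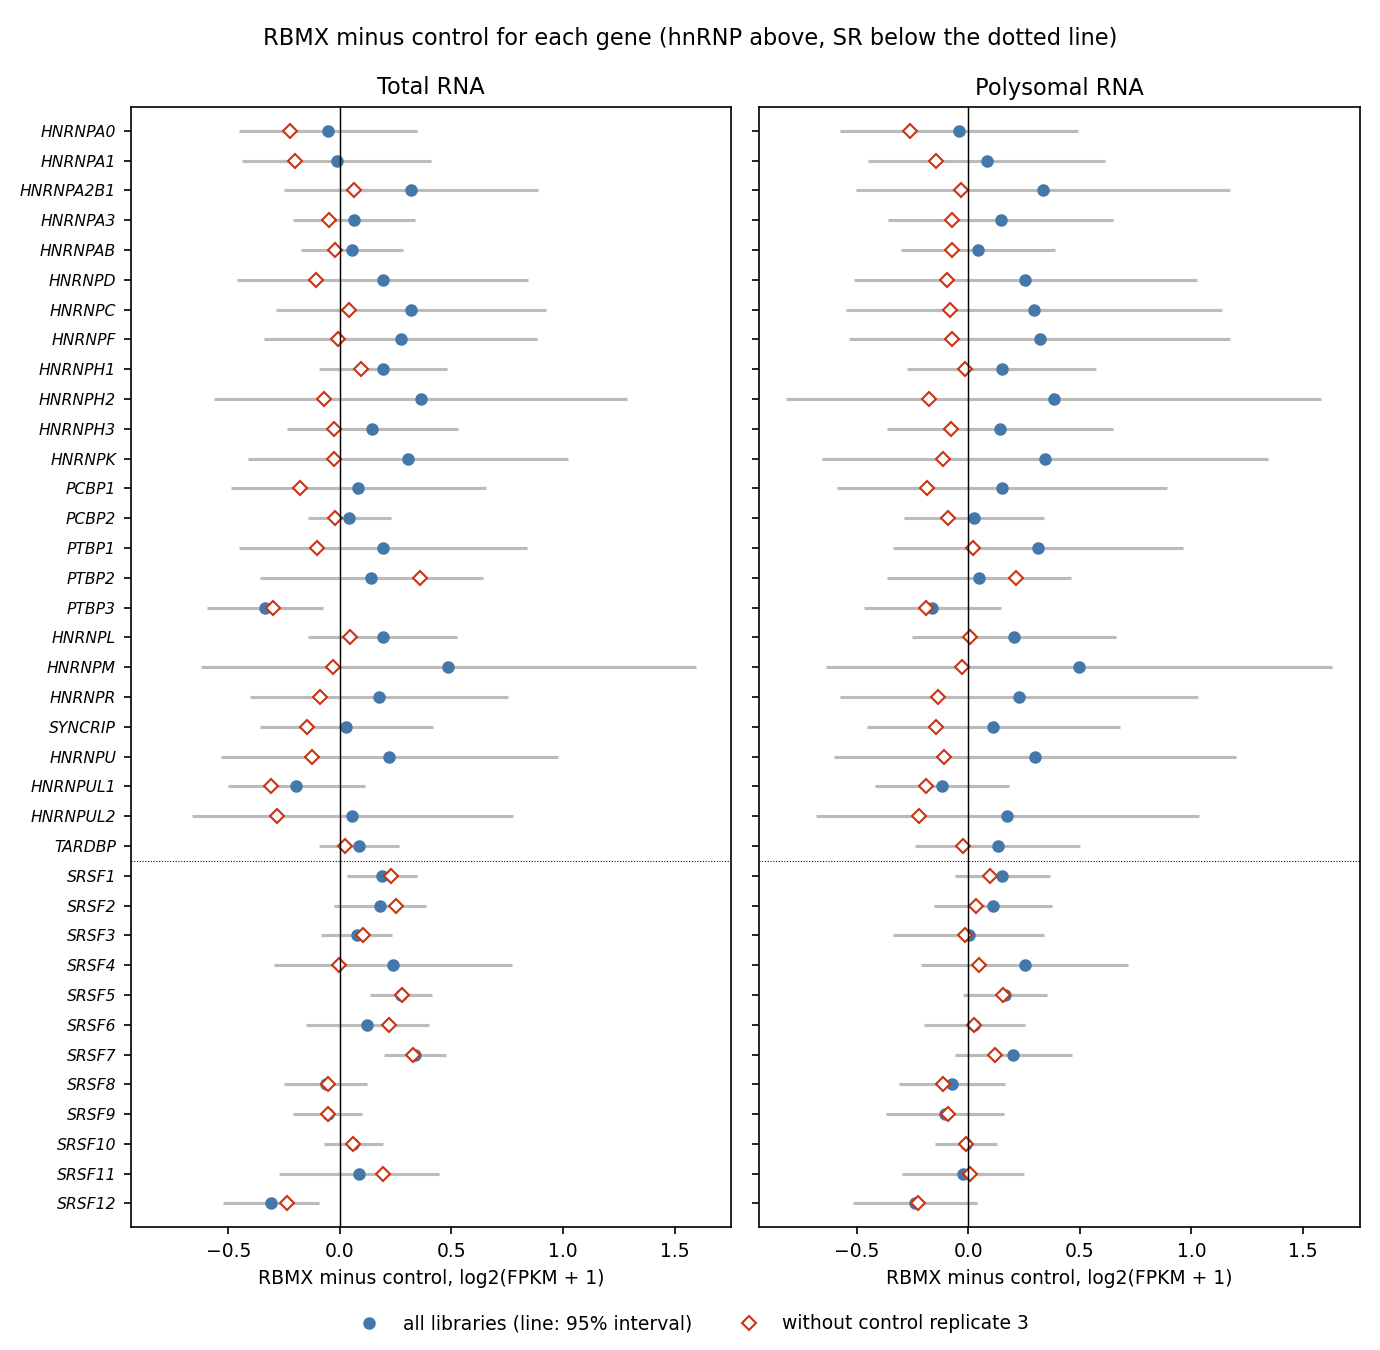
Fitted difference between RBMX and control cells in log2(FPKM + 1) for each member, in total RNA (left) and polysomal RNA (right); filled circles with 95% intervals use all 3 control libraries and open diamonds leave out control replicate 3. For HNRNPM and most other hnRNP genes the diamond lies to the left of the circle, while for SRSF1, SRSF5 and SRSF7 in total RNA both symbols lie to the right of 0.

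Polysomal RNA was then set against total RNA to ask which members' transcripts were relatively enriched in polysomes. FPKM values are scaled for each library, so a difference of 0 places a gene near the median of all genes and does not mean equal amounts of RNA. In control cells no member passed, against 12 genes or 0.0818%, and 1 member, SRSF6, had an unadjusted p under 0.05, against 8.04% of all genes. Polysomal libraries lay above all total libraries for 1 member, SRSF9 (7.63% of all genes), and below for 4, SRSF2, SRSF5, SRSF6 and SRSF7 (7.31% of all genes). With library weights SRSF6 passed, as did 7.24% of all genes. Over the 37 members the median difference was -0.02 with 16 above 0, and 0.07 with 27 above 0 without culture 3. For the hnRNP genes it was -0.01 with 12 above 0, and 0.07 with 21 above 0 without culture 3. For the SR genes it was -0.05 with 4 above 0, and -0.01 with 6 above 0 without culture 3. All genes tested had medians of 0.00 and 0.02.

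In RBMX cells no member passed either, against 196 genes or 1.34%, and 8 members, 4 hnRNP and 4 SR genes, had an unadjusted p under 0.05, against 23.0% of all genes. Polysomal libraries lay above all total libraries for 6 members, all hnRNP genes (HNRNPA2B1, HNRNPAB, HNRNPD, HNRNPM, HNRNPUL1 and HNRNPUL2), against 14.6% of all genes. They lay below for 6, PTBP2 and 5 SR genes (SRSF1, SRSF2, SRSF5, SRSF6 and SRSF7), against 16.2%. The median difference was 0.06 over the hnRNP genes, with 18 of 25 above 0, and -0.07 over the SR genes, with 2 of 12 above 0. All genes tested had a median of 0.00. With quantile scaling the medians were 0.20 and -0.01, with 24 and 5 above 0, and 0.04 over all genes. A correction for GC content and length gave 0.11 for the hnRNP and 0.03 for the SR genes, against 0.02 over all genes. The SR median thus changed its sign under this correction. Across 13190 genes tested, the difference in RBMX cells had a Spearman correlation of 0.24 with GC and 0.42 with length.

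PTBP2 had the most negative polysomal difference of all members in both kinds of cells. In RBMX cells it read 12.8, 13.2 and 12.1 FPKM in total and 9.58, 8.10 and 8.22 FPKM in polysomal RNA, a difference of -0.51 (SE 0.08, 95% interval -0.70 to -0.32, adjusted p = 0.053 in limma). In control cells it read 10.6, 8.88 and 15.8 FPKM in total and 7.50, 7.09 and 10.7 FPKM in polysomal RNA, a difference of -0.42 (SE 0.25) that was -0.37 without culture 3. Polysomal RNA was thus lower in each of the 6 cultures, with differences of -0.65 to -0.29. Over the 16 alternatives in RBMX cells its adjusted p ran from 0.021 to 0.23, and it passed in 3 of them, with library weights, without small RNA genes and with a correction for GC content and length. Of all genes tested 4.65%, 3.09% and 2.30% passed in those 3, and of the other members HNRNPUL2, SRSF5 and SRSF6 passed with weights and SRSF6 with the correction.

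SRSF6, an SR protein that binds exonic enhancers, followed. It read 95.8, 104 and 91.5 FPKM in total and 73.6, 62.9 and 75.8 FPKM in polysomal RNA of RBMX cells, and 88.3, 78.2 and 102 FPKM against 70.3, 68.4 and 68.9 FPKM in control cells. Neither pair of groups overlapped, and the differences were -0.45 (SE 0.09, adjusted p = 0.093 in limma) and -0.36 (SE 0.10, adjusted p = 0.60). In RBMX cells SRSF2, SRSF5 and SRSF7 had differences of -0.26 (SE 0.07), -0.26 (SE 0.06) and -0.24 (SE 0.07), and in control cells of -0.19, -0.15 and -0.11. With quantile scaling those in RBMX cells were -0.02, -0.13 and -0.11, and that of SRSF6 was -0.36. In control cells without culture 3, the difference of SRSF2 was -0.05 and that of SRSF7 -0.03, while that of SRSF6 was -0.26 and that of SRSF5 -0.13. The lower polysomal values of SRSF2 and SRSF7 in control cells thus rested mostly on culture 3.

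On the other side, HNRNPUL2 read 30.4, 29.7 and 29.7 FPKM in total and 35.1, 37.9 and 38.8 FPKM in polysomal RNA of RBMX cells, a difference of 0.30 (SE 0.05, adjusted p = 0.066 in limma). HNRNPM read 238, 209 and 205 FPKM against 262, 274 and 249 FPKM, with 0.27 (SE 0.09, adjusted p = 0.17). HNRNPUL1 read 222, 202 and 234 FPKM against 236, 279 and 271 FPKM, with 0.25 (SE 0.10, adjusted p = 0.21). In every culture these 3 genes were higher in polysomal than in total RNA. Within culture 3 of the controls, where HNRNPM was low in both fractions, its polysomal value was still above its total value by 0.24, close to the 0.29 and 0.24 of the other control cultures.

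Counted over both vectors, polysomal RNA lay above total RNA in all 6 cultures for 7 members, HNRNPAB, HNRNPM, HNRNPU, HNRNPUL1, HNRNPUL2, SRSF4 and SRSF9, against 16.0% of all genes. It lay below in all 6 for 5 members, PTBP2, SRSF2, SRSF5, SRSF6 and SRSF7, against 16.5% of all genes. The 7 and 5 members are 18.9% and 13.5% of the 37, near the shares of all genes. By class, 1 of the 25 hnRNP genes (4.00%) and 4 of the 12 SR genes (33.3%) lay below in all 6, and 5 (20.0%) and 2 (16.7%) lay above. With the culture as a block in the fit, the number of genes called in RBMX cells dropped from 196 to 4 and in control cells from 12 to 6, with no member called, and the adjusted p was 0.14 for PTBP2, 0.20 for SRSF6 and 0.16 for HNRNPUL2 in RBMX cells.

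**Figure D5:**
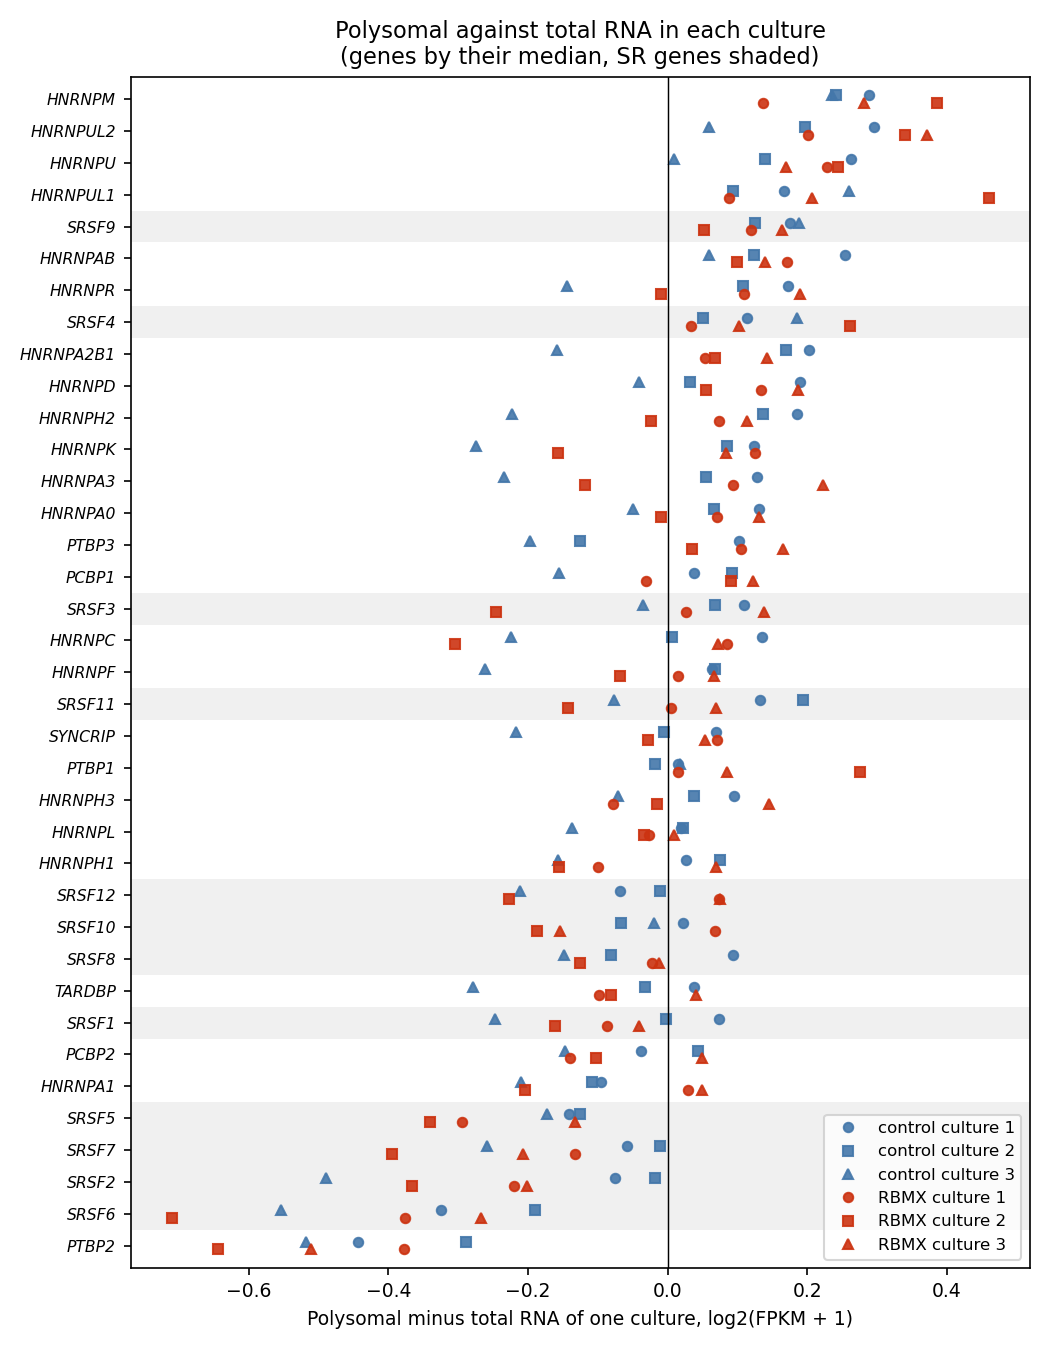
Polysomal minus total value of each culture, in log2(FPKM + 1), for the 37 members ordered by their median over 6 cultures, with SR genes shaded; blue symbols are control and red symbols RBMX cultures. PTBP2, SRSF6, SRSF2, SRSF7 and SRSF5 lie below 0 in all 6 cultures, and HNRNPM and HNRNPUL2 above 0 in all 6.

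Whether the difference between RBMX and control cells itself differed between the fractions was tested with the interaction term over all 12 libraries. No member passed, against 3 genes or 0.0204%, and none had an unadjusted p under 0.05, against 0.600% of all genes. The estimates ran from -0.14 (SRSF7) to 0.18 (PTBP3), and without control culture 3 from -0.22 (SRSF2) to 0.13. The 95% intervals were -0.40 to 0.13 for SRSF7, -0.31 to 0.09 for SRSF5 and -0.70 to 0.51 for PTBP2. They come from a fit without the culture as a block, so the spread between cultures is part of them. With the culture as a block no member passed either, against 5 genes. Of the 12 SR genes 10 had estimates below 0, and of the 25 hnRNP genes 19 had estimates above 0, but without control culture 3 the hnRNP genes had 9 above and 16 below 0, and the SR genes 10 below. Quantile scaling gave 24 hnRNP and 6 SR genes above 0, and library weights 4 and 2. Without RBMX replicate 2 the sign changed for 11 of the 37 members, and the SR median went from -0.07 to -0.02. RBMX polysomal replicate 2 lay below both other replicates for 9 of the 12 SR genes (75%), against 43.5% of all genes. Without control culture 3 the estimate for PTBP2 went from -0.09 to -0.15, and it was -0.21 (SE 0.09) for SRSF7 and -0.22 (SE 0.08) for SRSF2, with adjusted p-values of 1.0. The smaller polysomal differences of the SR genes were therefore not shown to differ from those in total RNA.

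Other splicing regulators and the enzymes that act on SR proteins were read from lists that do not overlap the members. Of 35 other regulators tested, PCBP4 passed in total RNA, where it was higher in RBMX cells, and none passed in the other comparisons. PCBP4, a KH-domain relative of PCBP1, read 8.26, 7.52 and 7.83 FPKM in control total RNA and 12.5, 12.2 and 12.7 FPKM in RBMX total RNA, a difference of 0.60 (SE 0.06, adjusted p = 0.044 in limma), and without control replicate 3 the adjusted p was 0.072. In polysomal RNA its difference was 0.64 (SE 0.12, adjusted p = 0.40). EWSR1, an RNA-binding protein, had a difference of 0.47 in total RNA, or 0.33 without control replicate 3, which did not pass.

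None of the 11 tested kinases and import receptors of SR proteins passed in any comparison. CLK1, a nuclear kinase of SR proteins, read 40.7, 42.8 and 38.1 FPKM in total and 25.7, 20.0 and 25.7 FPKM in polysomal RNA of RBMX cells, a difference of -0.75 (SE 0.11, adjusted p = 0.053 in limma). Its groups did not overlap, and its relative CLK4 had -0.47 (SE 0.10, adjusted p = 0.10). In control cells the differences were -0.49 for CLK1 and -0.38 for CLK4, with overlapping groups, and -0.50 and -0.35 without culture 3. CLK2 was the kinase with groups apart between vectors in both fractions, with 0.30 in total and 0.19 in polysomal RNA.

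For 13 of the members another gene of GENCODE release 29 shares at least 200 bases at 95% identity or more, so reads could have been split between them. HNRNPA1 has 13 such genes, among them HNRNPA1L2, HNRNPA3 has 5, and HNRNPUL2 shares 2391 identical bases with the read-through gene HNRNPUL2-BSCL2, which is a row of its own in the table. In polysomal RNA HNRNPUL2-BSCL2 read 25.6, 26.4 and 15.6 FPKM in control and 27.4, 33.2 and 29.5 FPKM in RBMX cells. HNRNPUL2 read 43.8, 43.4 and 18.5 FPKM against 35.1, 37.9 and 38.8 FPKM. Without control replicate 3 these rows thus moved in opposite directions. HNRNPC, HNRNPH2, HNRNPK, HNRNPL, HNRNPU, PCBP2, SYNCRIP, TARDBP, SRSF1 and SRSF6 have 1 or 2 each. Only for HNRNPA1, HNRNPA3, HNRNPH2 and HNRNPUL2 is such a gene a row of the expression table. Values of genes with shared sequence may be less certain than those of SRSF5, SRSF7, PTBP2 and HNRNPM, for which no such gene was found. How far shared reads moved any value was not tested.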

How the data were processed

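Total and polysomal RNA of HEK293 cells was sequenced by the authors on Illumina libraries, in 4 groups of 3 (12 libraries). The deposited values are FPKM per gene, normalised by the authors; the submitters' processing notes name CASAVA 1.8, TopHat2 2.0.13, Cuffnorm, Cufflinks 2.2.1 and hg19, with no role or order, and the methods of the study describe another pipeline for counts, which are not used here. The strandedness of the libraries and the counting of reads shared by similar genes are not given in the sources used here. The table held 0 columns that could not be tied to a sample. Low FPKM values did not fall on common steps, so reads were not recovered, depth is unknown and no counting interval is given.

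Genes with a mean of at least 0.5 FPKM were fitted as log2(FPKM + 1) with limma 3.58.1 (eBayes with intensity trend) in R 4.3.3, for each comparison on its own libraries and for the interaction on all 12, with Benjamini-Hochberg adjustment over all genes tested and a threshold of 0.05. Differences are on the log2(FPKM + 1) scale, which understates changes of low genes, and intervals are 95% intervals of that fit. An exact permutation test of 3 against 3 libraries cannot give a two-sided p below 0.1. The fits were tested on simulated data with known changes, which were larger than the differences of the members. Noise was drawn independently for each gene and library, so a library that stands apart for many genes was not covered. All 37 members are reported, and of the other lists the genes past the threshold and those among the 3 with the largest absolute difference in a comparison. A gene of these lists that this rule names is not reported here. The members and lists were chosen with earlier results of these data known.

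Alternatives were another pseudocount (0.1), no filter, median-ratio and quantile scaling, no trend, 1 fit of all libraries, library weights, no small RNA genes, a replicate block and each replicate left out; a loess correction for transcript GC content and length (span 0.5) and leaving out both libraries of control culture 3 were added after seeing the data. Total RNA was pooled from fractions of a gradient, so numbers were read as pairing the fractions of a vector: deviations from the group means correlated by 0.43, 0.61 and 0.75 in control cultures and by 0.17, 0.03 and 0.63 in RBMX cultures. Control and RBMX libraries of the same number correlated by -0.07 to 0.35, and numbers were not read as pairing vectors. That range holds the values of RBMX cultures 1 and 2, so these correlations alone do not settle either pairing. Similar genes were found with BLAST+ 2.17.0 in GENCODE release 29 (GRCh38), and promoter windows came from RefSeq (GRCh38.p14).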

Additional observations from a re-analysis of the deposited data

How the results depend on the processing

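In no alternative did a member pass the threshold with the sign of its difference turned. Members passed only with library weights (5 in total RNA, 2 in polysomal RNA, 1 between fractions of control cells and 4 between fractions of RBMX cells), without small RNA genes (1, PTBP2) and after the GC and length correction (2, PTBP2 and SRSF6), the last pair between fractions of RBMX cells. Leaving out any 1 library called 0 members in each comparison. With each replicate left out, the median difference of the members ranged from -0.026 to 0.19 in total RNA, from -0.07 to 0.24 in polysomal RNA, from -0.15 to 0.20 between fractions of control cells, from -0.03 to 0.06 between fractions of RBMX cells and from -0.05 to 0.06 for the interaction. The lowest values in total and polysomal RNA were those without control replicate 3. Between fractions of RBMX cells quantile scaling gave a median of 0.15 and the GC and length correction 0.071, against 0.02. In total RNA the median of 0.14 was 0.0089 with quantile scaling and 0.0021 with library weights, in polysomal RNA 0.15 became -0.056 with library weights, and for the interaction 0.015 became 0.12 with quantile scaling and -0.064 with library weights. Between fractions of control cells -0.019 became 0.055 and 0.090, and 0.066 without both libraries of control culture 3. The cause was not tested.

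The number of genes called over the whole table was less stable. In total RNA (24 called) it was 77 with no filter, 60 in 1 fit of 12 libraries, 1240 with library weights, 13 with the replicate block, 10 with the GC and length correction and 19 to 178 with a replicate left out, the highest without RBMX replicate 3 and 40 without control replicate 3. In polysomal RNA (7 called) it was 31 with no filter, 22 in 1 fit, 3088 with library weights, 2 without small RNA genes, 3 with the replicate block, 2 with the correction and 9 to 126 with a replicate left out. Between fractions of control cells (12 called) it was 41 in 1 fit, 1063 with library weights, 6 without small RNA genes, 6 with the replicate block, 199 without both libraries of culture 3 and 12 to 26 with a replicate left out. Between fractions of RBMX cells (196 called) it was 61 with no filter, 70 with quantile scaling, 21 in 1 fit, 682 with library weights, 439 without small RNA genes, 4 with the replicate block, 304 with the correction and 10 to 42 with a replicate left out, so the 196 rest on all 6 libraries. For the interaction (3 called) it was 6 with library weights, 0 without small RNA genes, 5 with the replicate block, 0 with the correction and 4 to 7 with a replicate left out.

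The replicate block changed no call of a member. Depth is not known from FPKM, so how far it limits SRSF10 and other low genes could not be given.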
